A study of Caenorhabditis elegans with 2 samples.

Results

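The 8 genes described here encode the core of TOR and AMPK signalling in Caenorhabditis elegans, and the data are ChIP-seq peaks of the C/EBP-family transcription factor CEBP-1 at and around them. They are let-363, daf-15, rict-1, rsks-1, raga-1, rheb-1, aak-1 and aak-2, taken by symbol from the 19973 protein-coding genes of the nuclear chromosomes in the WBcel235 annotation. For each gene, every peak was collected whose summit lay between 5 kb upstream of the annotated 5′ end and the 3′ end, a stretch called the gene window. The authors thresholded the optimal list by how well replicates rank the same peaks. It held the 5982 peaks with the highest signal in the list of both replicates pooled. Of these peaks, 18 had a summit in 1 of the gene windows, and no summit fell in more than 1 of them.

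The TOR kinase links nutrient supply to growth and translation and works in a pair of complexes, TORC1 with Raptor and TORC2 with Rictor. Rag and Rheb GTPases activate TORC1, whose best known effector is the ribosomal S6 kinase. AMPK, a kinase switched on when cellular energy is low, acts in many settings against TORC1, and in C. elegans lower TOR signalling and higher AMPK activity are both known for extending lifespan.

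The series held 1 group of 2 biological replicates, labelled 3 and 7. Both were whole young adults of strain OP563, which has the unc-119(tm4063) III mutation and the wgIs563 transgene for CEBP-1 with GFP and FLAG at its C terminus, in pooled males and females collected 63 hours after synchronization as starved L1 larvae. The labels differ on the antibody: the sample description names one against GFP, while the antibody field names cebp-1. Whether untagged CEBP-1 could also have been precipitated is therefore not known. Both replicates carried the same transgene, and neither an untagged strain nor a second condition was analysed here, so binding of CEBP-1 and signal that would appear without the tag cannot be told apart. In whole animals, strong binding in few cells and weak binding in many cannot be told apart either. Read depth is unknown because the lists hold no counts. With 1 group there is no comparison to test, and values are given as descriptions.

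Peaks were found at 7 of the 8 genes. In all of let-363, daf-15, rict-1, rsks-1, raga-1, rheb-1 and aak-2 the optimal list had at least 1 summit in the gene window, against 30.5% of all protein-coding genes, and aak-1 had none. In a promoter, taken as 1000 bp upstream to 200 bp downstream of the 5′ end, summits were found at 5 of the 8 genes (daf-15, rict-1, rsks-1, raga-1 and rheb-1), against 14.9% of all protein-coding genes. There were 3 or more summits in the windows of 4 of the 8 genes, namely rsks-1 with 5 and raga-1, rheb-1 and aak-2 with 3 each, against 5.62% of all. The windows of the 8 genes were long, with a median of 12237 bp against 7027 bp over all protein-coding genes. Over their whole length they held 1.68 optimal summits per 10 kb against 0.662, but the genes differed. This density was 4.67 at raga-1, 4.37 at rheb-1, 4.11 at rsks-1 and 2.44 at aak-2. It was 0.882 at let-363, 0.726 at daf-15, 0.424 at rict-1 and 0 at aak-1. All summits of the pooled list, which holds peaks and background, were at 6.46 per 10 kb over these windows against 3.13. By gene, rsks-1, raga-1, rheb-1, aak-1 and aak-2 lay between 10.9 and 14.8. Below 3.13 were let-363 (0.882), daf-15 (1.45) and rict-1 (0.848). Since the genes were chosen with earlier results in view, these counts carry no test.

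The sequences under the summits are given for the strongest peaks of rsks-1, rheb-1, raga-1, daf-15, aak-2 and rict-1 and for the promoter peak that rheb-1 shares with spk-1, so that the motifs described with the results can be seen. Each covers 75 bp on both sides of the summit in ce11 (WBcel235, from the RefSeq genome), written 5′ to 3′ on the strand of the named gene. Capitals mark the 8-mer TTGCGAAA, which reads TTTCGCAA from the other strand, and in the raga-1 peak the C/EBP core. Sequences with no capitals held neither.
rsks-1, 572 bp upstream, chrIII:11244473-11244623, plus strand: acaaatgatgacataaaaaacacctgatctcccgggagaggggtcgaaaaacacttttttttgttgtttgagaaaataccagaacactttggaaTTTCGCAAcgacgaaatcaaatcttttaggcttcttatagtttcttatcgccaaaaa
rheb-1, 1055 bp downstream, in an intron, chrIII:9454900-9455050, minus strand: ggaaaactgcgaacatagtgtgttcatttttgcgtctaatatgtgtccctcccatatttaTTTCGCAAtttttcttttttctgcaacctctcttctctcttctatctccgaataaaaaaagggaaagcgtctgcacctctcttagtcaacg
rheb-1 and spk-1, 283 bp upstream of rheb-1, chrIII:9456238-9456388, minus strand: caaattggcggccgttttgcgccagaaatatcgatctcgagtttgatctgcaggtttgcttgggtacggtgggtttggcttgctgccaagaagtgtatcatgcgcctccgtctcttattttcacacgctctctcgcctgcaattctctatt
raga-1, 3925 bp upstream, next to saps-1, chrII:11297359-11297509, plus strand: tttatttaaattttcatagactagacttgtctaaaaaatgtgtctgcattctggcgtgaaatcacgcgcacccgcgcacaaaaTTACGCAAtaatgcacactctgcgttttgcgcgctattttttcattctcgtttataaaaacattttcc
daf-15, 12 bp downstream, chrIV:9386145-9386295, plus strand: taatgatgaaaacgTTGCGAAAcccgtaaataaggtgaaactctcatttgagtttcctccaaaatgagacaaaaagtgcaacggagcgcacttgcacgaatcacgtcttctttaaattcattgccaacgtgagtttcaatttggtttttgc
aak-2, 954 bp downstream, in an intron, chrX:16796966-16797116, plus strand: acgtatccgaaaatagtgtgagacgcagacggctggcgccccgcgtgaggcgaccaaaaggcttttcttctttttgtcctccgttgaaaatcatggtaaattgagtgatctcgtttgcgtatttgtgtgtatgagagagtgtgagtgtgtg
rict-1 and gfm-1, 478 bp upstream of rict-1, chrII:13117213-13117363, minus strand: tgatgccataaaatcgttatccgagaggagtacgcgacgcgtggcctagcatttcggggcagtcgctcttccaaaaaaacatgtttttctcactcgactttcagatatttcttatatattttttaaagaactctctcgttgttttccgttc

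**Figure D1:**
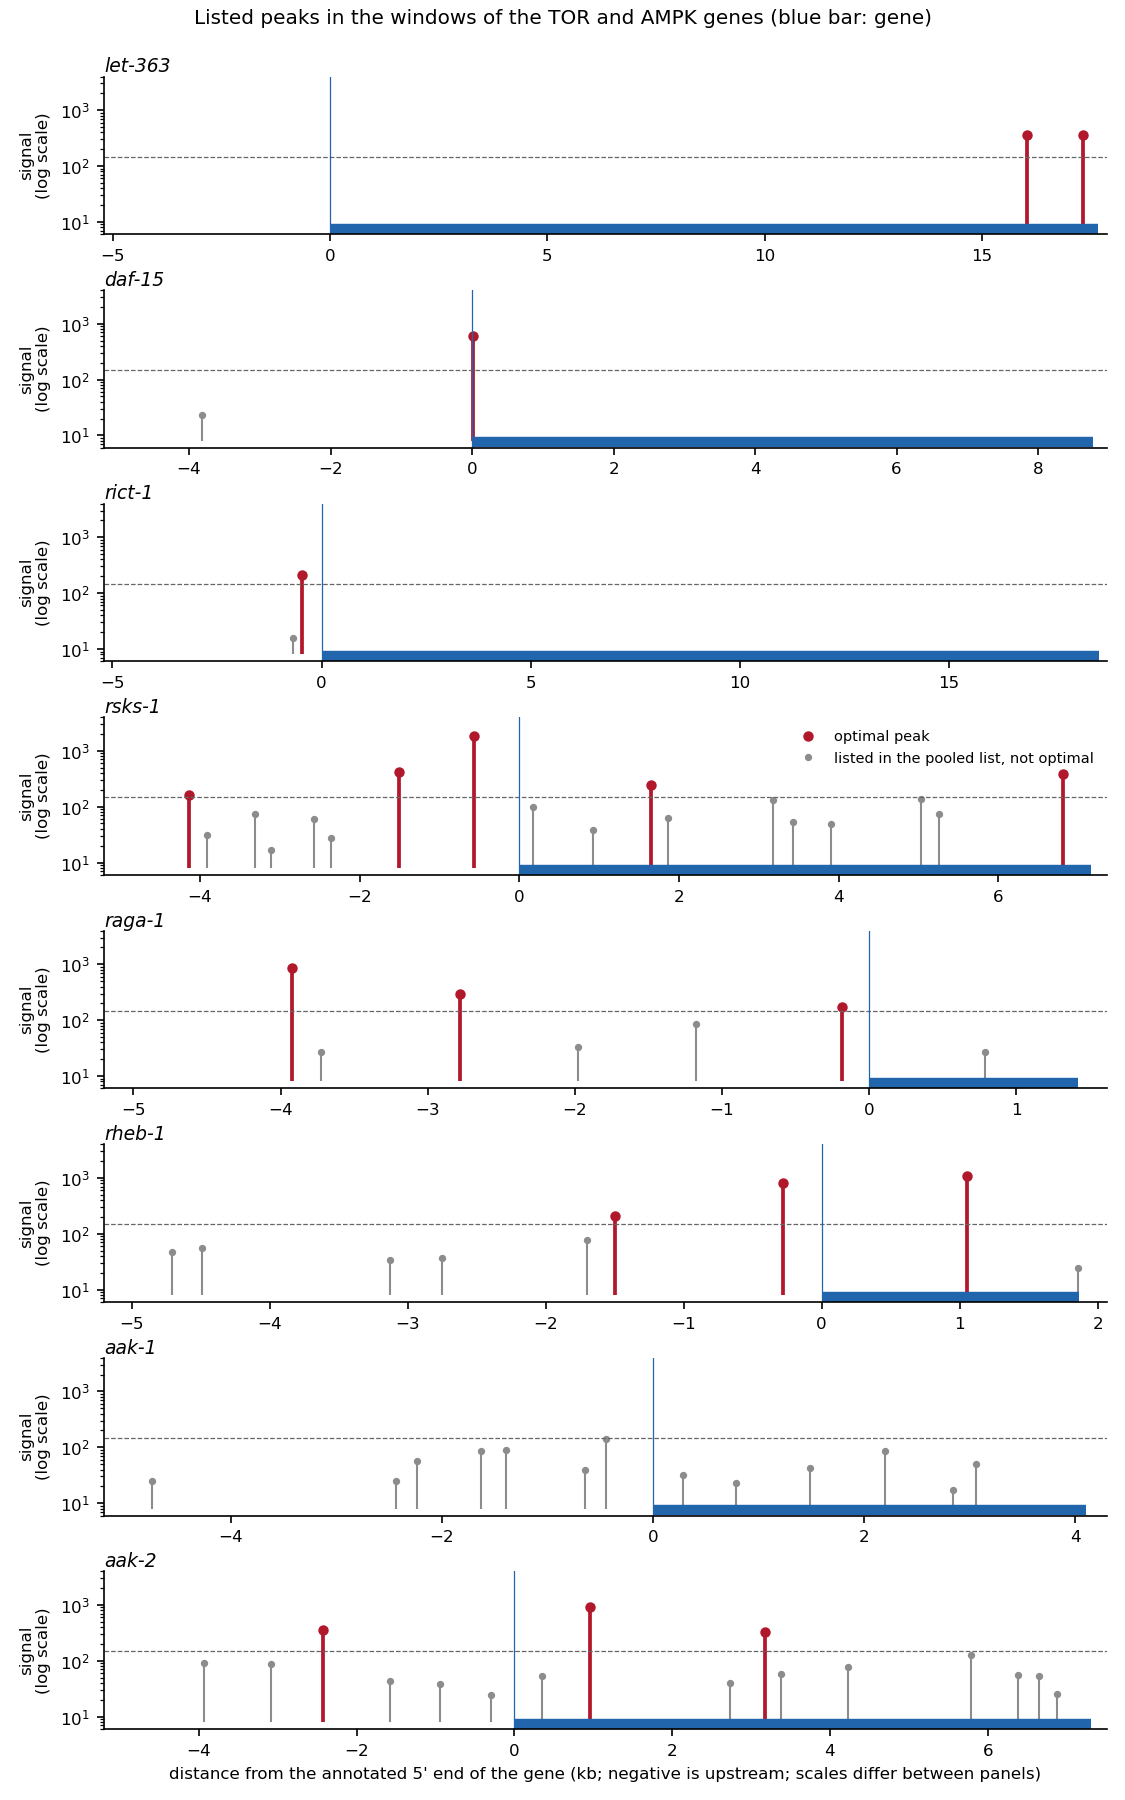
Peaks in the window of each gene, by distance of the summit from the annotated 5′ end in kb (x axis, a different scale in each panel) and by the authors' signal value in the pooled list (y axis, log scale). Red stems are the 18 optimal peaks, grey stems are pooled-list peaks that were not optimal, the blue bar is the gene, and the dashed line is the lowest optimal signal, 148. The optimal peaks of let-363 sit at its 3′ end, that of daf-15 at its 5′ end, and aak-1 has grey stems alone.

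let-363 (WBGene00002583, I 5245743 to 5263424, plus strand) encodes the TOR kinase itself. Its optimal peaks lay at the far end of this 17682 bp gene, and its promoter held none. The summit 17339 bp downstream of the 5′ end, in the 3′ UTR, had a signal of 364 and rank 2377 in the optimal list. Its signal was 164 in replicate 3 and 184 in replicate 7, where it ranked 3779 and 1689 of 30000 listed peaks. This summit was also 612 bp upstream of vep-1, so it lay in the promoter of that gene. The other summit, in an intron 16035 bp downstream, had signal 354 (rank 2462), with 254 in replicate 3 and 106 in replicate 7. For both, the nearest protein-coding 5′ end was that of vep-1 and not of let-363. In the 5 kb upstream of let-363 the pooled list held no peak, optimal or not. Replicate 3 alone listed a peak there, 3565 bp upstream with signal 108 and rank 5655, within its own top 5982.

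daf-15 (WBGene00000911, IV 9386208 to 9394979, plus strand) encodes Raptor, the TORC1 subunit that recruits substrates. It had 1 optimal peak, IV 9386036 to 9386346, with its summit 12 bp into the first annotated coding exon. The signal was 614 in the optimal list (rank 1259), 393 in replicate 3 (rank 1359) and 224 in replicate 7 (rank 1268). To put replicates on 1 scale, each signal was divided by the replicate's median at optimal summits, which was 204 in replicate 3 and 112 in replicate 7. On this relative scale the daf-15 peak was at 1.93 in replicate 3 and 2.01 in replicate 7, that is 1.97 ± 0.0536 (mean ± SD of 2 replicates, the form used for every relative signal here). It had the smallest SD of the 18 peaks. No other protein-coding promoter held this summit, so of the members' promoter peaks it is one of 3, with rsks-1 and raga-1, that lay in the promoter of the member alone.

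rict-1 (WBGene00009245, II 13098239 to 13116810, minus strand) encodes Rictor, the subunit that defines TORC2. Its single optimal peak, 147 bp wide, had its summit 478 bp upstream, at signal 207 and rank 4338. The same summit was 195 bp upstream of gfm-1, which encodes a mitochondrial translation elongation factor and had the nearer 5′ end. Replicate 3 had a signal of 160.0 there (rank 3877), and replicate 7 had 21.3 (rank 22745), far below the optimal limit of 5982. The relative signals of 0.786 and 0.191 average 0.488 ± 0.421, so the peak rests mainly on replicate 3. With summits up to 200 bp apart taken as matched, replicate 7 gave 0.485. The gene body, 18572 bp long, had no peak in the pooled or the replicate 3 list. Replicate 7 listed 5 there, the strongest 7625 bp downstream with signal 57.9 (rank 6984), in an intron of rict-1 that holds a coding exon of pqn-32.

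raga-1 (WBGene00006414, II 11301359 to 11302776, plus strand) encodes the RagA GTPase, which signals amino acid supply to TORC1. All 3 of its optimal peaks were upstream, and the strongest were nearer to saps-1, which encodes a regulatory subunit of the PP6 phosphatase. The summit 3925 bp upstream of raga-1 was 254 bp upstream of saps-1 and had signal 874 (rank 766). It gave 578 in replicate 3 (rank 788) and 295 in replicate 7 (rank 854), or a relative signal of 2.74 ± 0.140. The summit 2782 bp upstream, within a coding exon of saps-1, had signal 295 (rank 3026) and relative signals of 0.545 in replicate 3 and 1.72 in replicate 7. The one promoter peak of raga-1 was the weakest of these. Its summit, 186 bp upstream and inside the 3′ UTR of saps-1, had signal 175 (rank 5100), with a relative signal of 0.113 in replicate 3 and 0.720 in replicate 7. Replicate 3 listed its stronger peak here 298 bp upstream, with signal 101 and rank 5978, which is outside the 100 bp used for matching. With 200 bp, the relative signal in replicate 3 was 0.482.

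rheb-1 (WBGene00010038, III 9454163 to 9456030, minus strand) encodes the Rheb GTPase, the direct activator of TORC1, and is 1868 bp long. Its strongest optimal peak lay in an intron, 1055 bp downstream of the 5′ end, with signal 1072 and rank 545. This summit was also 913 bp upstream of F54C8.7. Replicate 3 gave 525 (rank 912) and replicate 7 gave 550.45 (rank 319), so the relative signals of 2.58 and 4.93 differ widely and average 3.75 ± 1.66. A peak 283 bp upstream of rheb-1 sat in the promoter it shares with the divergent gene spk-1, an SR protein kinase, whose 5′ end was 295 bp from the summit. That peak had signal 824 (rank 847) and the opposite order, 3.22 in replicate 3 and 1.55 in replicate 7 (2.38 ± 1.18). The replicates therefore disagreed on which of these peaks was the stronger. A weaker peak, 1498 bp upstream in the 5′ UTR of spk-1, had signal 206 (rank 4349) and relative signals of 0.667 and 0.763 in replicates 3 and 7.

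rsks-1 (WBGene00012929, III 11245120 to 11252281, plus strand) encodes the ribosomal S6 kinase. It carried the strongest peak of all 8 genes and the largest number, 5. Its window was 12162 bp long, and per 10 kb it held 4.11 optimal summits, against 4.67 at raga-1 and 4.37 at rheb-1. The promoter peak, III 11244257 to 11244809, had its summit 572 bp upstream and signal 1819.6, which ranks 223 of 5982, within the top 3.73%. Replicate 3 gave 1209.7 (rank 215) and replicate 7 gave 611 (rank 269), for a relative signal of 5.71 ± 0.333. Both replicates placed their summits within 2 bp of the optimal one. It lay in no other protein-coding promoter. The next peak, 1510 bp upstream and also intergenic, had signal 416 (rank 2041) and a relative signal of 1.25 ± 0.378.

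Within the body of rsks-1 there were 2 further optimal peaks. One lay in an intron 1649 bp downstream, with signal 241 (rank 3728) and relative signals of 0.918 in replicate 3 and 0.789 in replicate 7. The other, in the 3′ UTR 6807 bp downstream, had signal 378 (rank 2293) and a relative signal of 1.15 ± 0.461. Its interval was the widest of the 18, 1090 bp, a width that 3.48% of optimal peaks reached or exceeded, and its summit was 464 bp upstream of Y47D3A.32. In both of these peaks the summit of replicate 7 stood more than 90 bp from the optimal one, at 98 and 97 bp, so a match within 50 bp was lost. The weakest optimal peak of rsks-1, 4139 bp upstream, had signal 159 and rank 5568. Its nearest protein-coding 5′ end, 3838 bp away, was that of aakb-2, which encodes a regulatory beta subunit of AMPK.

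aak-2 (WBGene00020142, X 16796087 to 16803398, plus strand) encodes a catalytic alpha subunit of AMPK, the one best known for its part in lifespan. Its main peak was in an intron, 954 bp downstream of the 5′ end, with signal 925 and rank 704. Replicate 3 gave 727 (rank 541) and replicate 7 gave 206 (rank 1423), a relative signal of 2.70 ± 1.22. A second intron peak, 3175 bp downstream, had signal 334 (rank 2634) and relative signals of 1.30 and 0.727 in replicates 3 and 7. That summit was 445 bp upstream of the 5′ end of a shorter annotated transcript of aak-2, so with promoters of every transcript aak-2 also counted, and 6 of the 8 genes had a promoter peak against 16.4% of protein-coding genes. The third peak, 2421 bp upstream of aak-2, was 540 bp upstream of got-1.2, which encodes an aspartate aminotransferase, and had signal 361 (rank 2407) and a relative signal of 1.07 ± 0.150.

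aak-1 (WBGene00019801, III 8756990 to 8761090, minus strand) encodes the other catalytic subunit and was the only member with no optimal peak. Its strongest pooled-list peak was 447 bp upstream, in the promoter, with signal 142 and rank 6220, just outside the limit of 5982. Replicate 3 listed it 442 bp upstream with signal 126 and rank 4855, well within its own top 5982, whereas the strongest replicate 7 peak in the window was 1636 bp upstream with signal 58.7 and rank 6866. The nearest optimal summit lay beyond the 3′ end, 4218 bp downstream of the 5′ end, in a coding exon of sma-2, a Smad gene. The window was not empty of listed peaks, since the pooled list had 13 there, but all ranked below the limit.

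The weakest optimal peaks of these genes and the strongest that were not optimal differ little in signal. Just inside the limit were the peaks of rheb-1 1498 bp upstream (206), of raga-1 186 bp upstream (175) and of rsks-1 4139 bp upstream (159). Just outside were those of aak-1 447 bp upstream (142), of rsks-1 5032 bp and 3176 bp downstream (136 and 130, both in coding exons) and of aak-2 5782 bp downstream (126). The −log10 q-value, deposited by the authors beside the signal, did not follow the same order. It was 3.62 for the aak-1 peak outside the limit and 3.46 for the rheb-1 peak inside it.

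**Figure D2:**
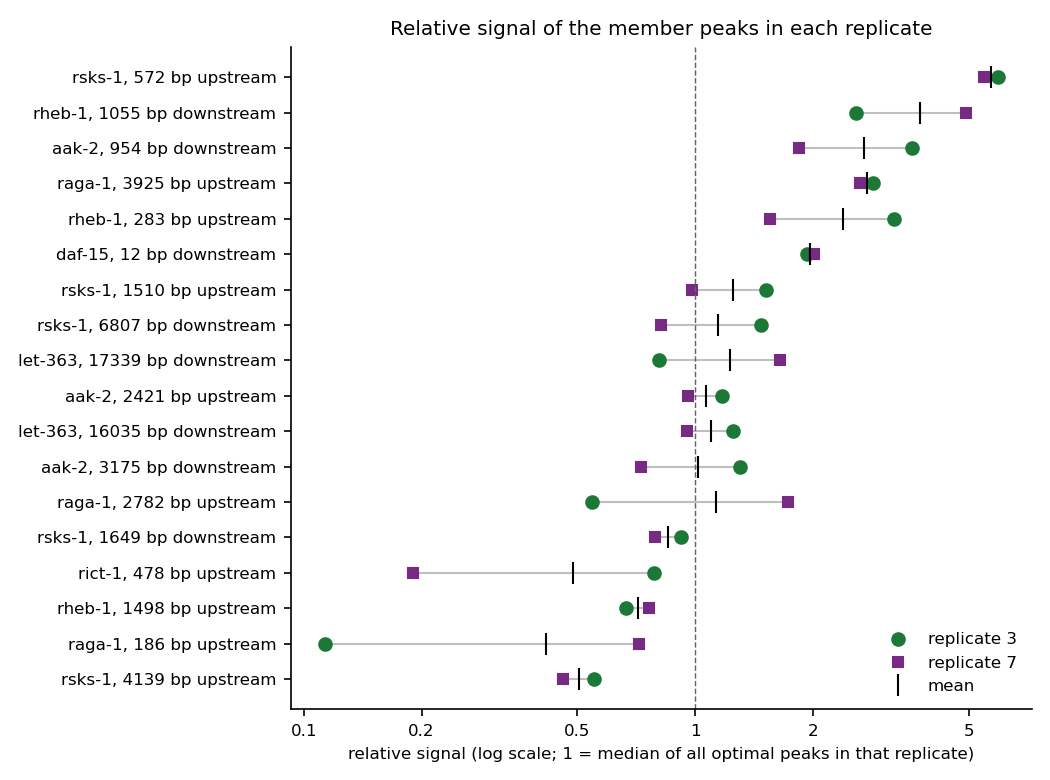
Relative signal of the 18 optimal peaks in replicate 3 (green circles) and replicate 7 (purple squares), with their mean (black bar), on a log axis on which 1 is the median of all optimal peaks in that replicate. Peaks run from the highest optimal signal at the top to the lowest at the bottom. The peak of rsks-1 572 bp upstream lies above 5 in both replicates. With the 100 bp match drawn here, those of rict-1 and of raga-1 186 bp upstream are the most widely spread. Matching within 200 bp gave 0.764 and 0.485 for rict-1, and 0.482 and 0.718 for raga-1, in replicates 3 and 7.

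By their strongest peak, the genes fell in the order rsks-1 (5.71 ± 0.333), rheb-1 (3.75 ± 1.66), aak-2 (2.70 ± 1.22), raga-1 (2.74 ± 0.140), daf-15 (1.97 ± 0.0536), let-363 (1.23 ± 0.590) and rict-1 (0.488 ± 0.421), as ranked by signal in the optimal list. The ranges of mean ± SD of neighbours overlapped from rsks-1 down to raga-1, and again between let-363 and rict-1. The ranges of daf-15 and raga-1 did not overlap, nor did those of let-363 and daf-15. With 2 replicates these ranges are a rough guide to the spread. The order is that of peaks in the gene windows. The strongest peaks of rheb-1, raga-1 and let-363 lay outside the member's own promoter, in those of F54C8.7, saps-1 and vep-1. In its own promoter raga-1 was at 0.417 ± 0.429, and let-363 had no optimal peak.

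Most of the 18 peaks ranked within the top 5982 of both replicates. Within 100 bp of the optimal summit, 15 of the 18 (83.3%) had a replicate summit among the top 5982 of both replicates, against 60.2% of all optimal peaks. The exceptions were the peaks of rict-1 478 bp upstream, of raga-1 186 bp upstream and of rsks-1 4139 bp upstream. Replicate 3 held 17 of the 18 and replicate 7 held 16, against 85.3% and 72.1% of all optimal peaks. On the relative scale 12 of the 18 peaks were higher in replicate 3 and 6 in replicate 7, and over all matched peaks 55.7% were higher in replicate 3. Of the 18, 12 were among the 2991 strongest peaks of the optimal list, and 6 among the 1495 strongest. Their median relative signal was 1.14, against 1.01 over the 5251 optimal peaks matched in both replicates. It was 1.27 in replicate 3 alone and 0.971 in replicate 7 alone, where the median of all optimal peaks is 1 by construction, so the peaks stood above the typical optimal peak in replicate 3 and not in replicate 7.

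Many of these peaks lay close to other genes as well. The member's own 5′ end was the nearest protein-coding one for 8 of the 18. A further gene's promoter held the summit in 7 cases, and in 5 of those the summit was outside the member's own promoter. Another 8 lay in no protein-coding promoter. Upstream of the 5′ end there were 10 summits and downstream of it 8. These counts were not taken over all optimal peaks, so whether they are usual for this list is not known. The target gene of each peak was not tested.

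Some of the searched motifs were found at these summits, and each is given beside its share of all optimal summits. The 8-mer TTGCGAAA was found within 50 bp of 4 of the 18 summits, against 14.9% of all optimal summits. These were the strongest peaks of rsks-1, rheb-1 and let-363 and the peak of raga-1 2782 bp upstream, with the nearest base of the match 19, 8, 23 and 27 bp from the summit. At 75 bp the count was 5, with daf-15 (54 bp from its summit), against 16.03% of optimal summits. This 8-mer was picked in an earlier search of these same peaks, so its presence is a description. The C/EBP core, searched in its forms TTACGCAA, TTACGTAA, TTGCGCAA and TTGCGTAA, is the sequence family that C/EBP factors are known to bind. It was found at 1 of the 18, the raga-1 peak next to saps-1, at 8 bp from the summit, against 1.27% of optimal summits.

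GAGA repeats (GAGAGAGA) were found at 2 peaks, those of rsks-1 1510 and 4139 bp upstream, against 4.88% of all optimal summits. None of the 18 held the E-box CACGTG, found at 5.52% of optimal summits, or the palindrome TTGCGCAA (0.669%), the C/EBP-ATF composite TGATGCAA (0.819%), the AP-1 site TGACTCA or TGAGTCA (1.81%) or the CRE TGACGTCA (1.003%). All motifs were read on both strands within 50 bp of the summit, and the palindrome is also a form of the core. GC content within 50 bp had a median of 43.1% at the 18 summits and 43.6% at all optimal summits. It was lowest at the raga-1 promoter peak (31.7%) and highest at the rheb-1 peak 1498 bp upstream (51.5%). The median width of the 18 peaks was 334.5 bp, against 430.0 bp over all optimal peaks. Each of their intervals held 1 summit, and the share of all optimal intervals with 1 summit is not given here.

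The promoters ranked nearest to that of rsks-1 by signal belong to varied genes. Among the 3 optimal peaks directly above it and the 3 directly below, those in promoters were at cox-5A, a cytochrome c oxidase subunit (rank 222, relative signal 5.06 ± 3.42), at K12H4.5 (rank 225, 5.76 ± 0.0553) and between hsp-60, the mitochondrial chaperonin, and Y22D7AL.10 (rank 226, 5.31 ± 2.04). The remaining 3 lay in no protein-coding promoter. All these signals lay between 1805 and 1830.2.

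Other genes of the pathways were described from a list of 39. Of these, 13 had an optimal summit in the promoter (33.3%), against 14.9% of protein-coding genes, and 23 had one in the gene window (59.0%), against 30.5%. The promoter count depended on replicate 3. Without it 8 genes counted, against 13.5% of protein-coding genes: ragc-1, lmtr-2, flcn-1, efk-1, pha-4 and aakg-2 were lost and aakb-2 was gained. Without replicate 7 the count was 12, against 15.7%, but the genes changed. Lost were ife-1, pha-4 and pod-2, and ife-2 and aakg-5 were gained. Most of the promoter peaks were weak. Of the 13, those of ifg-1, lmtr-3 and rps-6 were among the 2991 strongest optimal peaks, and with these peaks alone 3 of the 39 genes counted, against 9.16% of protein-coding genes.

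**Figure D3:**
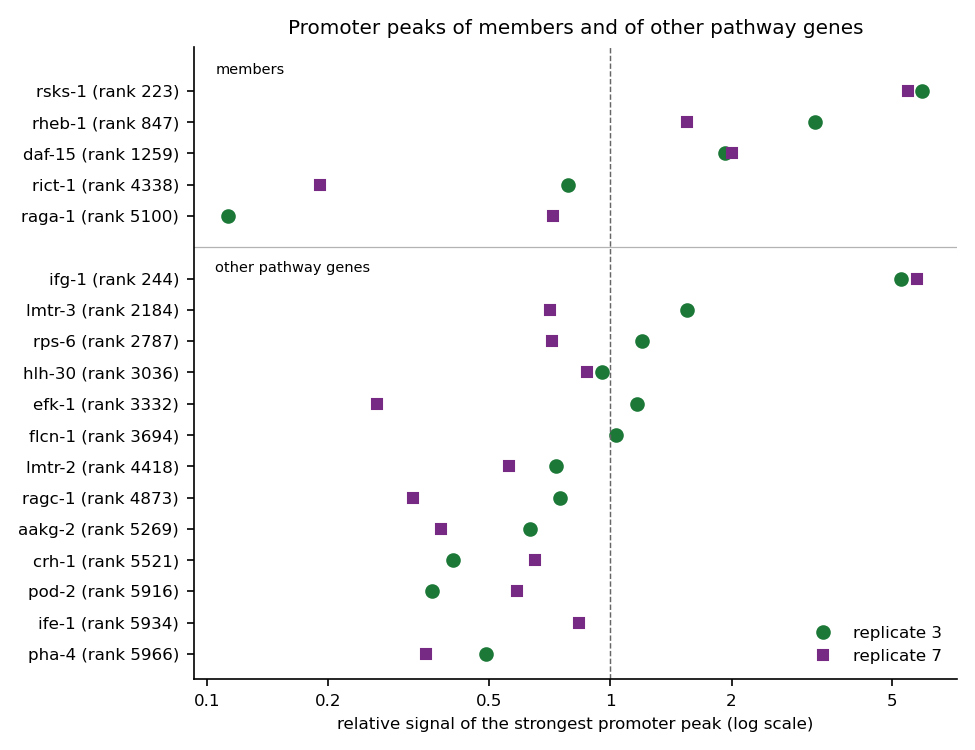
Relative signal of the strongest promoter peak in replicate 3 (green circles) and replicate 7 (purple squares) for the 5 members with one (above the line) and the 13 other pathway genes with one (below it), on a log axis, with the rank in the optimal list in brackets. A missing symbol means no summit within 100 bp in that replicate. Only rsks-1 and ifg-1 lie above 5 in both replicates.

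Among partners and inputs of the TOR complexes, 4 of 11 genes had a promoter peak, a share of 36.4% against 14.9% of protein-coding genes. They were the GTPase gene ragc-1, which encodes the RagC partner of RagA (0.539 ± 0.302), the Ragulator genes lmtr-2 (0.647 ± 0.122) and lmtr-3 (1.13 ± 0.592), whose products anchor Rag GTPases at the lysosome, and flcn-1, the folliculin gene, matched in replicate 3 alone (1.03). The lmtr-3 peak was also in the promoter of atp-5, an ATP synthase subunit gene, and those of ragc-1 and lmtr-2 were in promoters of Y24F12A.1 and Y97E10AR.4. Neither mlst-8, which encodes a TOR subunit, nor sinh-1, a TORC2 subunit gene, had an optimal summit in its window.

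Among TOR outputs, 6 of 13 genes had a promoter peak, a share of 46.2% against 14.9% of protein-coding genes. The strongest was that of ifg-1, the eIF4G scaffold of translation initiation, with its summit 456 bp upstream at rank 244 and a relative signal of 5.51 ± 0.352, and it was shared with M110.3. Its mean ± SD overlaps that of rsks-1. Ribosomal protein S6 gene rps-6, which shares its peak with usp-3 and encodes the substrate that named the S6 kinase, was at 0.958 ± 0.341. The rps-6 summit lay in exons of the ncRNA genes Y71A12B.30 and Y71A12B.31. The lysosome and autophagy factor gene hlh-30, the TFEB homolog, was at 0.914 ± 0.0547. At 0.713 ± 0.636 was efk-1, the elongation factor kinase gene, with its summit in an intron of F42A10.9. The last of the 6 were pha-4, a FoxA factor gene (0.421 ± 0.101), and ife-1, an eIF4E gene matched in replicate 7 alone (0.837), at ranks 5966 and 5934 of 5982. The ife-1 summit was also in the 3′ UTR of dro-1.

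Among AMPK subunits, activators and outputs, 3 of 15 genes had a promoter peak, a share of 20.0% against 14.9% of protein-coding genes. They were aakg-2, a regulatory gamma subunit gene (0.507 ± 0.177), crh-1, the CREB homolog (0.530 ± 0.172), and pod-2, the acetyl-CoA carboxylase that AMPK inhibits in mammals (0.474 ± 0.160). The pod-2 summit lay in an intron of W09B6.4. All 3 were below the median optimal peak in both replicates. Neither the beta subunit genes aakb-1 and aakb-2 nor the kinase gene par-4, the LKB1 homolog that activates AMPK, had a promoter peak. For the beta subunits this depended on the setting, since aakb-2 had one without replicate 3, and aakb-1 had one with promoters from 2000 bp upstream to 500 bp downstream.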

How the data were processed

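ChIP-seq peak lists of 2 biological replicates of 1 group were analysed. The authors deposited, per the accompanying text files, lists of 30000 peaks and background for each replicate and for both pooled, and a list of optimal peaks thresholded by irreproducible discovery rate. Each was derived from alignments and 1 control file. Each peak has a signal value and a −log10 q-value that reaches 1 shared maximum per list, read from the deposited files as narrowPeak columns. The caller and threshold are not given in the sources used here, so how the signal was computed is not known. A test on the lists showed that the optimal peaks were the 5982 pooled peaks with the highest signal.

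The ce11 lists were placed on WBcel235 with Ensembl release 115 genes (Python 3.11.15, pandas 2.3.3), and window assignment was checked on made-up genes. Coordinates are 1-based. The ce10 lists were not used here, since no ce10 annotation was. Peaks were ranked by signal within each list, and replicates were matched at the strongest summit within 100 bp of the optimal one. The genes named were the members, pathway genes with a promoter summit and the 3 ranks on each side of the rsks-1 peak. Genes whose promoter or body held a peak of a member or of a pathway gene were also named. Genes named for having no peak were chosen after their values were seen. Members and lists were chosen with earlier results of these data known. Alternatives covered windows, peak strength, matching and single replicates. No p-value is given, because 1 group allows no test between groups.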

Additional observations from a re-analysis of the deposited data

How the results depend on the processing

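The counts rest on few genes, and each is given with the share of protein-coding genes under the same setting. In the gene window, 7 members counted with 1 kb upstream (19.8%), with 2 kb (23.3%) and with overlap of intervals (31.8%), 8 with 10 kb (39.5%), 6 with the 2991 strongest peaks (20.6%), and 5 when a peak counted for the nearest 5′ end only (17.8%), which left out let-363 and rict-1. In the promoter, 3 members counted with the 2991 strongest peaks (9.16%), which left out rict-1 and raga-1, and 4 with 500 bp upstream to 100 bp downstream (11.5%), which left out rsks-1. Without replicate 3, 6 members counted in the window (31.1%) and 4 in the promoter (13.5%), with rict-1 lost from both. Without replicate 7, 8 counted in the window (31.3%) and 6 in the promoter (15.7%), with aak-1 gained in both. The pathway list had promoter counts of 3 of 39 with the 2991 strongest peaks (9.16%), 8 without replicate 3 (13.5%), 12 without replicate 7 (15.7%) and 18 with 2000 bp upstream to 500 bp downstream (19.8%). The median relative signal was 0.971 without replicate 3, below the 1 of the typical optimal peak, and 1.27 without replicate 7. With matching within 50 bp, 3 of the 18 peaks had no value in 1 replicate. The cause of these changes was not tested. Depth is unknown, so for a peak that is not listed, absence and lack of detection cannot be told apart. No paired analysis was possible because there is 1 group.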
